A study of Mus musculus with 16 samples.

Results

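The MYC, MAX and MXD network is a set of basic helix-loop-helix leucine zipper genes whose products bind DNA in pairs. MYC proteins activate transcription as dimers with MAX. The MXD proteins and MNT compete for the same partner and the same E-box sites and recruit the SIN3 co-repressor. MGA, which also carries a T-box domain, pairs with MAX inside a non-canonical polycomb complex. In macrophages the network is known for coupling growth factor signals to cell growth and division, and in T cells Myc is a direct target of Notch. The 10 members were taken by symbol from the 47069 genes of the count table, and each symbol matched 1 row. The members were Myc, Mycl and Mycn (the MYC family), Max, Mxd1, Mxi1, Mxd3 and Mxd4 (the MXD family), Mnt and Mga. Of these, 9 passed the filter on low counts and Mycn did not.

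Bone marrow-derived macrophages (BMMs) were grown from C57BL/6 mice aged 8 to 10 weeks, and every sample was primed overnight with IFNγ (10 ng/mL) and then activated for 1 hr with LPS (100 ng/mL) and IgG-opsonized ovalbumin, an immune complex (LPS/ICs). One group received DAPT, a γ-secretase inhibitor (GSI), at 25 μM, which blocks the cleavage that releases active Notch, and the other received the vehicle DMSO (0.01%). The paper's methods state that both were given overnight ahead of activation, though its legends for other experiments give a shorter time. Whether a difference arose before or after LPS/ICs were added cannot be told apart. RNA-seq gave 2 libraries per group, each the sum of 4 runs, with 42694655 to 56932059 counts per library. The labels do not say whether the 2 libraries of a group came from separate mice or cultures, so the p-values measure the spread between these libraries, which may be technical. There was no sample without LPS/ICs, and γ-secretase has substrates other than Notch, so the comparison covers the inhibitor within activated macrophages only. All 8 macrophage markers exceeded 1 CPM (counts of a gene per 1000000 counts of the library, with TMM-adjusted library sizes) in every library, with summed levels of 12280 and 12480 CPM for DMSO and 9489 and 10410 CPM for GSI. Lyz2 was the largest part of these sums. Cd68 (939 and 1001 against 1141 and 1058 CPM) and Mertk (49.0 and 45.5 against 77.8 and 69.0 CPM) were higher with GSI, and the other markers were lower. The summed markers of neutrophils, T cells, B cells and fibroblasts lay between 0.0621 and 1.29 CPM, those of dendritic cells between 3.68 and 5.25 CPM, and all 3 erythroid markers were at 0. The 7 genes of a list of Notch targets (Hes1, Hes5, Hey1, Hey2, Heyl, Nrarp and Dtx1) had 0 to 5 counts per library and none passed the filter, so that the list gave no readout of Notch activity here.

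With GSI, Myc fell 2.58-fold and Mycl rose 5.75-fold, so the 2 expressed MYC genes moved in opposite directions. In the MXD family Mxi1, Mxd4 and the weakly expressed Mxd3 fell, whereas Mxd1, the most abundant of them, showed no called change. Max rose 1.20-fold, a call that depended on single libraries, and Mnt and Mga were not called. In all, edgeR's quasi-likelihood test called 4 members lower and 2 higher at an FDR (Benjamini-Hochberg adjusted over 13211 genes) under 0.05, against 21.9% of all tested genes called lower and 19% called higher. The study's fold change threshold, an absolute log2 fold change above 1.5, was also passed by Mycl (higher), against 0.742% of all tested genes, and by Mxd3 (lower), against 2.17%. Mxd3 passed the filter on low counts through its DMSO libraries only, so its place among the lower calls is partly built into that filter and nothing is read from it. In 6 members the 2 groups did not overlap in CPM, 4 lower and 2 higher with GSI, against 34.8% of all tested genes not overlapping and lower and 35.8% not overlapping and higher. Whether fewer cells expressed a gene or each cell held less of its mRNA cannot be told apart in these bulk samples.

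**Figure D1:**
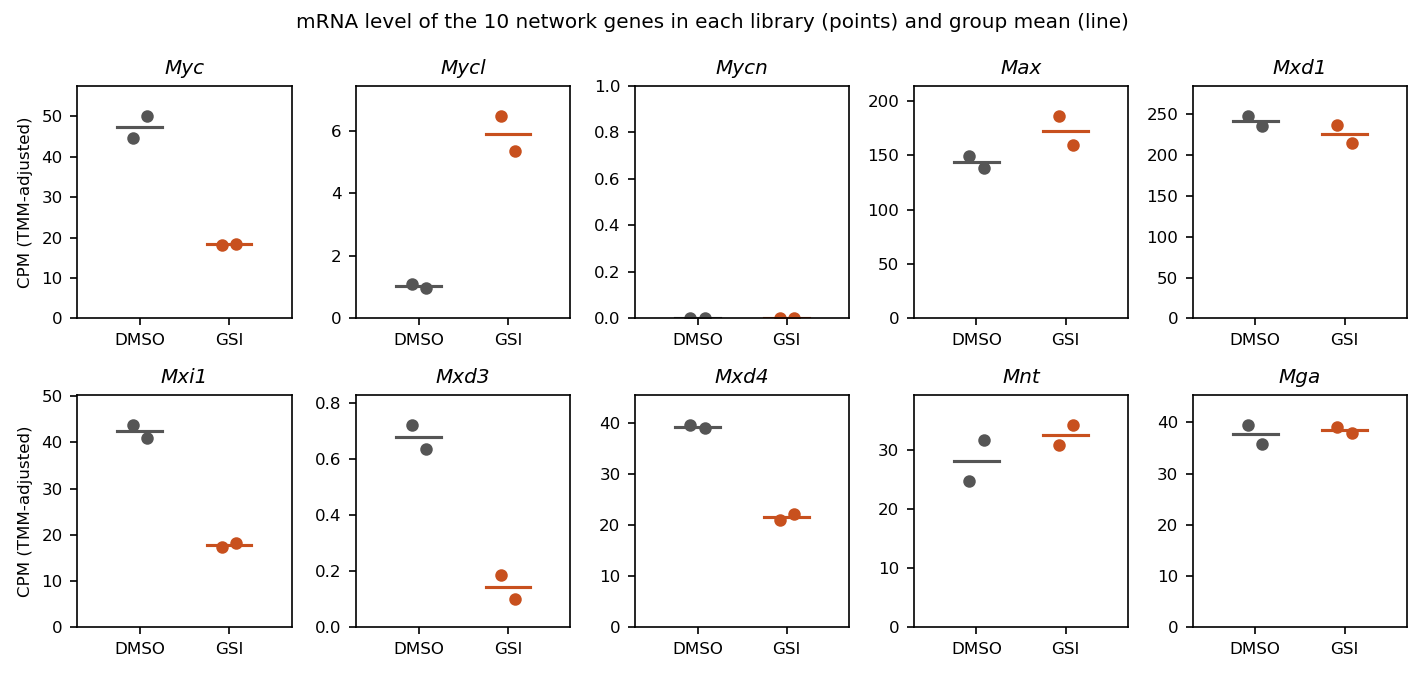
mRNA level of each of the 10 members, in CPM on axes that start at 0, with 1 point per library (2 for DMSO and 2 for GSI) and a line at the group mean. For Myc, Mxi1, Mxd3 and Mxd4 both GSI points lie below both DMSO points, for Mycl and Max above them, and Mycn is at 0 throughout.

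Myc (ENSMUSG00000022346), the growth-promoting founder of the family, lies on chromosome 15 of GRCm38 from 61985391 to 61990374. It was at 44.6 and 50.0 CPM in the DMSO libraries and at 18.2 and 18.4 CPM in the GSI libraries. The groups were far apart relative to the spread within them, 47.3 ± 3.87 CPM (SD, n = 2) against 18.3 ± 0.129 CPM (SD, n = 2). On the log2 scale the change came to -1.37 (standard error, SE, 0.0824, 95% interval -1.54 to -1.20), with an edgeR FDR of 1.09e-10, and only 3.56% of all tested genes had a larger absolute change. The 4 fits that each lacked 1 library gave -1.45 to -1.28. No annotated exon of another gene overlaps the exons of Myc on the other strand. Pvt1, the long non-coding RNA gene next to Myc, fell from 4.02 and 4.25 CPM to 2.19 and 2.45 CPM, a difference of -0.83 on the log2 scale (SE 0.150, edgeR FDR 1.54e-04).

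Mycl (ENSMUSG00000028654), on chromosome 4 from 122995652 to 123002485, encodes L-MYC, a relative of MYC that is known from dendritic cells and their progenitors. It was read 47 and 55 times with DMSO and 312 and 264 times with GSI. This corresponded to 1.09 and 0.969 CPM against 6.45 and 5.35 CPM, and the lowest GSI library was well above the highest DMSO library. On the log2 scale the change came to 2.52 (SE 0.172, 95% interval 2.16 to 2.88), with an edgeR FDR of 5.15e-10, and 1.11% of tested genes had a larger absolute change. Of the dendritic cell markers, Flt3 had at most 2 counts and Siglech 0, Zbtb46 had 10 to 19 counts, and Xcr1 had 216 and 263 counts with DMSO and 182 and 170 with GSI. Their summed level was thus almost all Xcr1, and whether dendritic cells bear on the change of Mycl was not tested. Mycn (ENSMUSG00000037169), on chromosome 12 from 12936093 to 12941914, encodes N-MYC of neural and embryonic tissue. It had 0 counts in all 4 libraries, which allows a level of up to 0.0527 to 0.0703 CPM (on unadjusted library totals), where the limit is 3 counts per library and covers counting error only.

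To compare members with each other, CPM was divided by the length of the merged exons of each gene in kb. On this scale Myc fell from 16.4 and 18.4 to 6.71 and 6.78 CPM per kb, and Mycl rose from 0.270 and 0.240 to 1.60 and 1.32 CPM per kb. Mycl thus made up 1.62% and 1.29% of the length-scaled MYC family level with DMSO, and 19.2% and 16.4% with GSI. The rise of Mycl was small against the fall of Myc, and the summed level of the family was 16.7 and 18.6 CPM per kb with DMSO and 8.31 and 8.10 CPM per kb with GSI.

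Max (ENSMUSG00000059436), the shared partner of these proteins, lies on chromosome 12 from 76937269 to 76962201. It was at 149.6 and 139 CPM with DMSO and at 186 and 159 CPM with GSI, so the groups did not overlap although the GSI libraries differed by more than the gap between the groups. The difference on the log2 scale came to 0.26 (SE 0.0786, edgeR FDR 0.0116), a size that 47.2% of tested genes exceeded. The call was lost without GSI replicate 1 (log2 fold change 0.15, adjusted p = 0.170) and without DMSO replicate 2 (0.20, adjusted p = 0.117). Per length, Max was the most abundant member in both groups, at 2.49 and 2.06 times the summed MYC family with DMSO and 6.22 and 5.47 times with GSI.

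**Figure D2:**
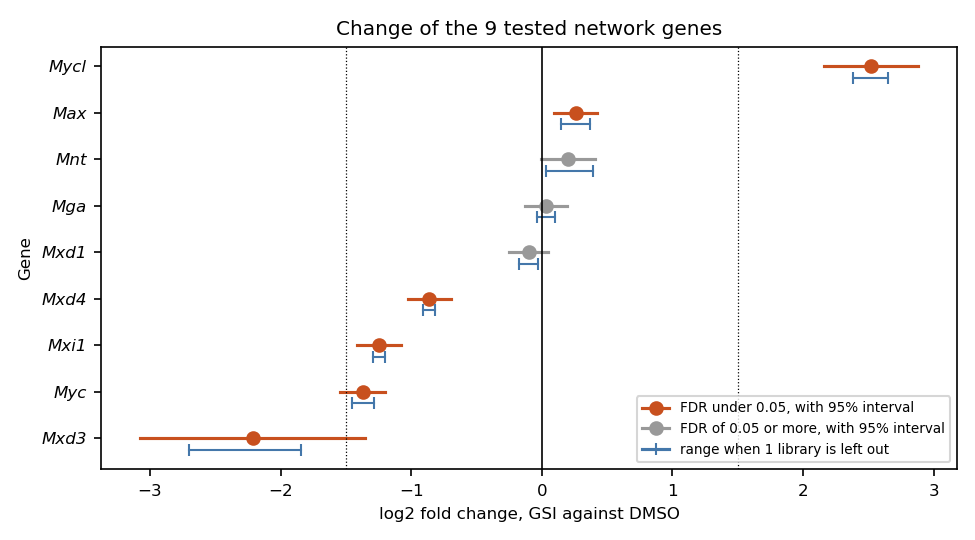
Log2 fold change of GSI against DMSO for the 9 tested members, with the 95% interval from edgeR's quasi-likelihood fit and, below it, the range over the 4 fits that left out 1 library. Dotted lines mark -1.5 and 1.5: Mycl lies beyond the upper line and Mxd3 beyond the lower, Myc, Mxi1 and Mxd4 lie between the lower line and 0, and the intervals of Mxd1, Mnt and Mga include 0.

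The MXD genes encode the antagonists of MYC and are known to rise when cells leave the cycle, except for Mxd3, which is expressed in S phase. Mxi1 (ENSMUSG00000025025), also called Mxd2, lies on chromosome 19 from 53310518 to 53375810. It fell from 43.7 and 41.0 CPM to 17.4 and 18.3 CPM, a difference of -1.25 on the log2 scale (SE 0.0805, 95% interval -1.41 to -1.08, edgeR FDR 2.58e-10). Mxd4 (ENSMUSG00000037235), on chromosome 5 from 34173883 to 34187720, fell from 39.5 and 39.0 CPM to 20.9 and 22.3 CPM, a difference of -0.86 on the log2 scale (SE 0.0785, edgeR FDR 2.99e-08). In both genes the libraries of a group lay close together and the groups were clearly separated. The decrease of Mxi1 and that of Myc were of like size, so the length-scaled ratio of Mxi1 to Myc stood at 0.390 and 0.327 in the DMSO libraries against 0.380 and 0.396 in the GSI libraries.

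Mxd1 (ENSMUSG00000001156), on chromosome 6 from 86647042 to 86669161, encodes MAD1, the family member linked to myeloid differentiation. It was at 248 and 236 CPM with DMSO and at 237 and 215 CPM with GSI, and the groups overlapped. On the log2 scale the change came to -0.10 (SE 0.0727, 95% interval -0.25 to 0.05), with an edgeR FDR of 0.288. Mxd1 made up 75.5% and 75.4% of the length-scaled MXD family with DMSO and 86.8% and 85.0% with GSI, while Mxi1 made up 13.8% and 13.6% and then 6.61% and 7.52%. Per length, Mxd1 exceeded Myc by a ratio of 2.14 and 1.82 in the DMSO libraries and of 4.99 and 4.48 in the GSI libraries.

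Mxd3 (ENSMUSG00000021485), on chromosome 13 from 55325168 to 55329823, had few reads, 31 and 36 with DMSO and 9 and 5 with GSI. On the log2 scale the change came to -2.21 (SE 0.412, 95% interval -3.07 to -1.35), with an edgeR FDR of 2.21e-04, and the fits lacking 1 library gave values between -2.70 and -1.84. The call is partly built into the filter on low counts, as stated above. In addition, 105 bases of its 2369 exon bases lie across from exons of Prelid1, a mitochondrial protein gene on the other strand with 8132 and 9940 counts with DMSO and 11091 and 10552 with GSI. The part of reads from that strand in the Mxd3 counts was not tested. For Mxi1 and Mxd4 the genes on the other strand, Gm10197 and Gm42846, had at most 7 counts in any library, against at least 841 counts of either member.

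The promoters of Mxd4, Mnt and Mxi1 are shown because 2 of these genes fell and because their windows hold the letters bound by MYC and MAX dimers or by RBPJ, the DNA-binding partner of Notch. RefSeq windows of 300 bases (250 before to 50 after a start, build GRCm38.p6) were matched for 9 members, Myc not being among them. The E-box CACGTG, which reads the same on both strands, was searched together with the RBPJ core TGGGAA and its reverse complement TTCCCA, and the motifs do not overlap. The E-box was in the windows of 3 of the 9 members (Mnt, Mxd4 and Max) and the RBPJ core in those of 2 (Mxi1 and Mxd3). Of all 27025 genes with a window, 8.09% held the E-box and 28.3% the RBPJ core in at least 1 window. Capitals mark the E-box in the first 2 sequences and the RBPJ core in the other 2, which belong to separate starts of Mxi1, and bases in annotated exons were left out.
Mxd4, chr5:34187721-34187960, minus strand: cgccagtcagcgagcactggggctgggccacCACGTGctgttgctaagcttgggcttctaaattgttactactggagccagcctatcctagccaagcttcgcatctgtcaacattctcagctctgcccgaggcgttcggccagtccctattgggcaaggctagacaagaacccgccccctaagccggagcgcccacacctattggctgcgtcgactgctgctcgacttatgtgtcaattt
Mnt, chr11:74830674-74830919, plus strand: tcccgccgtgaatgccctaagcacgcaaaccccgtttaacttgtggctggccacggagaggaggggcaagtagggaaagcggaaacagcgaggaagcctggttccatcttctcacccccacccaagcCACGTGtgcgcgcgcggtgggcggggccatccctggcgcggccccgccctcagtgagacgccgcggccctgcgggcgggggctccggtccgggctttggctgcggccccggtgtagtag
Mxi1, upstream start, chr19:53310256-53310505, plus strand: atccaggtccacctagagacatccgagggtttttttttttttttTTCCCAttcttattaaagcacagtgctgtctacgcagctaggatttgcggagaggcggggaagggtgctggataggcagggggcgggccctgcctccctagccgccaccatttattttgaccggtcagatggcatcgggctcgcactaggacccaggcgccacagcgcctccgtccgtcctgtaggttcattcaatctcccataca
Mxi1, downstream start, chr19:53329163-53329412, plus strand: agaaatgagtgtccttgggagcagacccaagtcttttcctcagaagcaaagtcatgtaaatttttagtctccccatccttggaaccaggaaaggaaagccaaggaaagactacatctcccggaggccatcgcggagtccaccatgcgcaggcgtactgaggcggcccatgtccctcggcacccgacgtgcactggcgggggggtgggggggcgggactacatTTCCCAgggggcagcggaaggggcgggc
The E-box begins 219 bases before the start of Mxd4 and 123 bases before that of Mnt, and the RBPJ core begins 206 and 28 bases before the starts of Mxi1. Of the members with an E-box, Mxd4 was called lower, Max was called higher and Mnt was not called. Both members with the RBPJ core, Mxi1 and Mxd3, were called lower, the call of Mxd3 being partly built into the filter. A link between motif and change was not tested. A match is a string of letters and not a measured binding site.

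Mnt (ENSMUSG00000000282), on chromosome 11 from 74830920 to 74845725, encodes the broadly expressed antagonist that balances MYC in most tissues. It was at 24.7 and 31.65 CPM with DMSO and at 30.8 and 34.2 CPM with GSI, and the groups overlapped. The difference of 0.20 on the log2 scale (SE 0.0978, 95% interval -0.0042 to 0.40, edgeR FDR 0.109) rested on DMSO replicate 1, the lowest library: without it the value was 0.04, and without DMSO replicate 2 it was 0.39 with an adjusted p of 0.00281. Mga (ENSMUSG00000033943), on chromosome 2 from 119897228 to 119969581, was at 39.4 and 35.9 CPM with DMSO and at 39.1 and 38.0 CPM with GSI. On the log2 scale the change came to 0.04 (SE 0.0771, 95% interval -0.13 to 0.20), with an edgeR FDR of 0.746.

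The order of the members by length-scaled level was Max, Mxd1, Myc, Mxi1, Mnt, Mxd4, Mga, Mxd3, Mycl and Mycn with DMSO. Neighbours in this order that overlapped between libraries were Mxi1 with Mnt (6.21 and 6.09 CPM per kb on average) and Mxd3 with Mycl (0.286 and 0.255 CPM per kb). With GSI the order was Max, Mxd1, Mnt, Myc, Mxi1, Mxd4, Mga, Mycl, Mxd3 and Mycn. Mnt and Myc then overlapped at 7.02 and 6.74 CPM per kb, and so did Mxi1, Mxd4 and Mga at 2.62, 2.55 and 2.51 CPM per kb. The Mnt to Myc ratio per length stood at 0.326 and 0.372 in the DMSO libraries against 0.992 and 1.09 in the GSI libraries. The summed level of the 6 antagonists (the MXD family, Mnt and Mga) was 54.3 and 53.5 CPM per kb with DMSO and 47.8 and 45.6 CPM per kb with GSI. Because the MYC family fell more, the antagonists stood at 3.26 and 2.87 times the MYC family with DMSO and at 5.76 and 5.62 times with GSI. These ratios describe mRNA and not protein, and they take all annotated exons of a gene as its length.

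**Figure D3:**
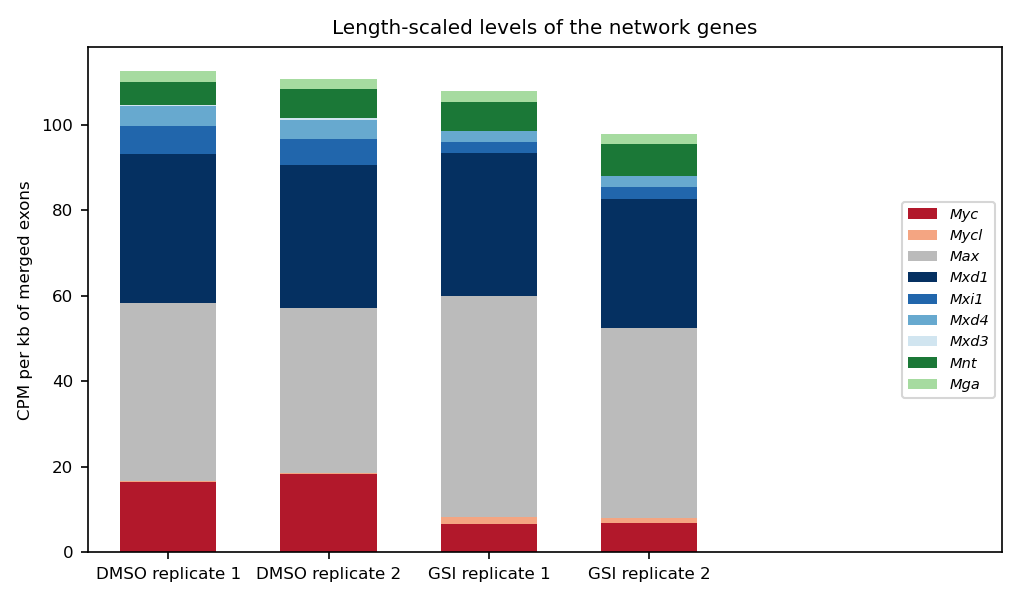
Stacked levels of the members in each of the 4 libraries, in CPM per kb of merged exons, from 0; Mycn, at 0, is not drawn. The Myc segment shrinks from 16.4 and 18.4 to 6.71 and 6.78, a Mycl segment appears above it, Max and Mxd1 make up most of every bar, and Mxi1 and Mxd4 are thinner in the GSI bars.

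Genes known as MYC targets in other cells did not fall together. Lists written from general knowledge covered 93 targets in 4 groups, all of which were tested. Of the 93, 17 were lower and 20 higher, so 39.8% were called against 40.8% of all tested genes, and their median change on the log2 scale was 0.06 against 0.01 over all tested genes. By count, the targets as a whole were called about as often as any gene.

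Of 36 targets in ribosome biogenesis, 0 were lower and 5 were higher by edgeR's quasi-likelihood test (13.9% called, against 40.8% of all tested genes). At an unadjusted p under 0.05, a rule for which no share over all genes was taken, 1 was lower and 9 were higher. DESeq2 called 0 lower and 1 higher, and over all genes with counts it called 4033 of 21723. The edgeR counts changed when 1 library was left out, and so did those over all genes. All 36 lay between -0.17 and 0.34 on the log2 scale, with a median of 0.12. The 3 largest called changes were those of Mrto4 (0.34, from 14.6 to 18.5 CPM), a ribosome assembly factor, Grwd1 (0.32, from 7.24 to 9.10 CPM), a chaperone of a ribosomal protein, and Nop16 (0.27, from 9.03 to 10.9 CPM), a nucleolar protein. Grwd1 lost its call without GSI replicate 2 (0.22) and without DMSO replicate 1 (0.23), and Nop16 lost it in each of the 4 fits that lacked 1 library (0.22 to 0.34). Of 9 targets in translation, 0 were lower, also at an unadjusted p under 0.05 and by DESeq2, and 3 were higher (33.3% called). The latter were the initiation factors Eif3b (log2 fold change 0.37) and Eif5a (0.34) and the tRNA synthetase subunit Farsa (0.30, but 0.20 and not called without DMSO replicate 1).

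Of 31 targets in metabolism and mitochondria, 7 were lower and 10 higher (54.8% called, against 40.8% of all tested genes), and the median change was 0.06 on the log2 scale. Slc7a5, the large neutral amino acid transporter, rose from 11.3 and 11.3 CPM to 34.3 and 30.5 CPM, a difference of 1.52 on the log2 scale (SE 0.0893, edgeR FDR 7.52e-11). Shmt2, the mitochondrial serine hydroxymethyltransferase, rose from 28.5 and 29.2 CPM to 59.0 and 56.9 CPM. Slc7a5 and Shmt2 are also known targets of ATF4, the factor of the amino acid response. Tyms, which makes thymidylate for DNA synthesis, fell from 4.60 and 4.60 CPM to 3.00 and 2.47 CPM.

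Of the 17 targets in the cell cycle, 10 were lower and 2 higher (70.6% called, against 40.8% of all tested genes), and the median change was -0.31 on the log2 scale. The 3 largest changes were decreases: Plk1, the mitotic kinase, fell from 7.04 and 7.83 CPM to 2.36 and 2.85 CPM, a log2 fold change of -1.51. Cks2, a subunit of cyclin-dependent kinases, and Ccnb1, cyclin B1, had log2 fold changes of -0.98 and -0.88. The larger of the 2 increases was close in size to the decrease of Ccnb1, since Ccne1, cyclin E1, rose from 12.5 and 11.8 CPM to 23.5 and 20.45 CPM (0.86, FDR = 3.72e-07 from edgeR), and the other was in the kinase Cdk4 (0.20, FDR = 0.0269 from edgeR). Over the 4 fits that lacked 1 library, 9 were lower and 1 higher in each. The difference between this group and the other targets was not tested. Of the 8 genes known to be repressed by MYC, 4 were lower and 1 higher (62.5% called). The largest decrease was that of Thbs1, the matrix protein thrombospondin 1, from 123 and 114 CPM to 22.7 and 27.8 CPM (log2 fold change -2.23), followed by Ndrg1 (-1.19), a stress-responsive gene, Cebpa (-0.52), a myeloid transcription factor, and the cell cycle inhibitor Cdkn1b (-0.48). Without DMSO replicate 2 the value of Cebpa was -0.28 and it was not called (adjusted p = 0.102 from edgeR). Cdkn2b, a further inhibitor, rose from 0.906 and 0.687 CPM to 1.30 and 1.44 CPM (0.80), a call that was lost without GSI replicate 2 (0.73) and without DMSO replicate 2 (0.59), and that DESeq2 did not make. Cdkn1a (-0.18, FDR = 0.0663), Gadd45a (0.18, FDR = 0.0567) and Ndrg2 (-0.23, FDR = 0.612 from edgeR) were not called, although Cdkn1a was by DESeq2 and without GSI replicate 1 (-0.22) and Gadd45a without GSI replicate 2 (0.26).

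**Figure D4:**
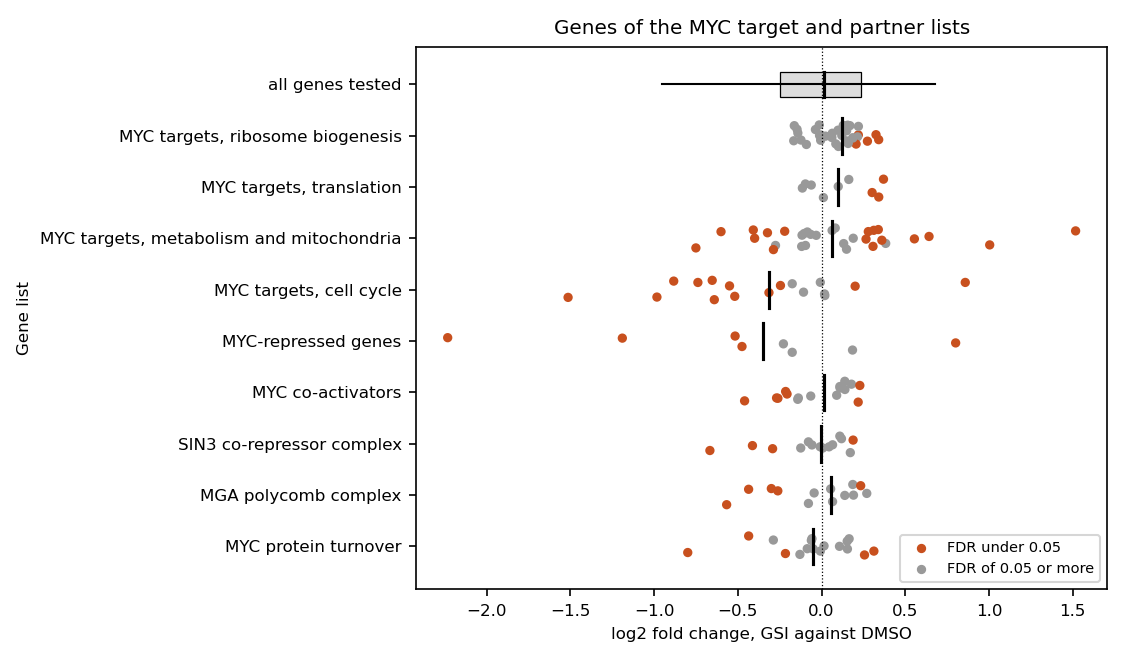
Log2 fold change of GSI against DMSO for each tested gene of 9 lists (points, with a black bar at the median of the list) and, at the top, all 13211 tested genes (box from the lower to the upper quartile, bar at the median, line from the 5th to the 95th percentile). The points of ribosome biogenesis crowd between -0.17 and 0.34, whereas 13 of the 17 cell cycle targets lie below 0.

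The parallel arm of the network, in which MLX pairs with the glucose sensors MondoA (Mlxip) and ChREBP (Mlxipl), moved little. Mlx was at 32.2 and 32.2 CPM with DMSO and at 39.2 and 35.05 CPM with GSI, a log2 fold change of 0.20 with an FDR of 0.0449 from edgeR; DESeq2 did not call it, nor did edgeR without GSI replicate 1 (0.12), DMSO replicate 1 (0.20) or DMSO replicate 2 (0.20), nor with RLE factors or library totals as the scaling. Mlxip was at 54.3 and 59.0 CPM against 56.3 and 56.7 CPM (-0.0040, FDR = 0.971 from edgeR), and Mlxipl, with at most 0.116 CPM, was not tested. Of the MondoA targets, Arrdc4, an arrestin-like protein, rose from 32.6 and 36.1 CPM to 72.0 and 68.2 CPM, a log2 fold change of 1.03 (FDR = 2.11e-09 from edgeR). Txnip, which limits glucose uptake, rose from 51.7 and 49.0 CPM to 59.0 and 63.1 CPM (0.28, FDR = 0.00486 from edgeR), but was not called without DMSO replicate 2 (0.24).

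Among genes whose proteins work with the members, most changes were small. Of 16 MYC co-activators 5 were lower and 2 higher (43.8% called, close to the 40.8% of all tested genes), with a median change of 0.01 (log2), and the largest changes were in the chromatin reader Bptf (-0.46), the elongation factor cyclin Ccnt1 (-0.27) and the host cell factor Hcfc1 (-0.26). Only 2 co-activators were lower without GSI replicate 2, when Ccnt1 (-0.17) and Hcfc1 (-0.20) lost their calls, and 2 without DMSO replicate 1, when Hcfc1 (-0.23) did, and over the 4 such fits 0 to 1 were higher. Of 14 genes of the SIN3 co-repressor, which MXD proteins and MNT recruit, 3 were lower and 1 higher (28.6% called, below the 40.8%). The lower ones were Arid4a (-0.67), Sin3a (-0.41), the scaffold of the complex, and Arid4b (-0.29), and 3 were lower in each fit that lacked 1 library, whereas 0 were higher without DMSO replicate 1 or DMSO replicate 2. Of 13 genes of the polycomb complex that holds MGA, 4 were lower and 1 higher (38.5% called), with Cbx3 (-0.57), Rybp (-0.44) and Tfdp1 (-0.30) the largest. Tfdp1 was not called without DMSO replicate 2 (-0.25), and 0 were higher without GSI replicate 1, DMSO replicate 1 or DMSO replicate 2. Wdr5, Hdac1 and Hdac2 belong to 2 of these lists each and were not called.

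Of 11 germ cell genes that the MGA complex silences in stem cells, 3 were tested and 1 was called. Ddx4, the germ cell helicase, rose from 2.90 and 2.94 CPM to 4.94 and 4.33 CPM (log2 fold change 0.66, FDR = 8.29e-04 from edgeR). Tdrkh was at 4.93 and 5.64 CPM with DMSO and at 5.40 and 5.53 CPM with GSI (0.04, FDR = 0.816 from edgeR). Stag3, a meiotic cohesin subunit, had 20 and 29 counts with DMSO and 17 and 10 with GSI, and its log2 fold change of -0.82 was not called (FDR = 0.0952 from edgeR). The other 8 had mean levels of at most 0.0924 CPM in either group. Of 17 genes that control the stability of MYC protein, 3 were lower and 2 higher (29.4% called, against 40.8% of all tested genes), or 2 lower and 3 higher without GSI replicate 2, and 2 lower and 1 higher without DMSO replicate 1. Aurka, the mitotic kinase that shields N-MYC from degradation, fell (-0.80), as did the ubiquitin ligase Huwe1 (-0.44), whereas the ligase Stub1 rose (0.31). Fbxw7, which marks phosphorylated MYC for degradation, had a log2 fold change of 0.11 and was not called (FDR = 0.335 from edgeR), and Fbxw7, Ccne1, Cdk4, Tdrkh and Stag3 were named after their values were seen.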

How the data were processed

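The authors prepared strand-specific poly(A) libraries, trimmed the reads with Trimmomatic, aligned them with STAR (version 2.5.0a per the labels) to mm10 and counted them per gene with HTSeq; the strand setting is not given in the sources used here. The deposited values are raw counts per gene in 16 columns, which were matched to samples by title. The 4 runs of each replicate differed by about sampling noise (chi-square per degree of freedom 1.01 to 1.03) and were summed to 4 libraries.

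Counts were tested with edgeR 4.0.16 (R 4.3.3; glmQLFit, glmQLFTest, filterByExpr, TMM, group only) over 13211 genes, with DESeq2 1.42.0 as an alternative. Standard errors were the log2 fold change over the square root of F, and intervals used the degrees of freedom of the fit. A call was an FDR under 0.05. The quasi-likelihood fit was also run on simulated counts that gave all genes the same dispersion and held large changes only. That simulation therefore says nothing about small changes or about genes that vary more. Positions, exon lengths and overlaps came from GENCODE M21 on GRCm38, which held 98.9% of the gene IDs; 2 rows carry the symbol Itgam and the one with more counts was used. The members and lists were chosen with earlier results of these data known. All members were named, and of each list the 3 largest called changes at 1 CPM or more (every gene for lists of 8 or fewer).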

Additional observations from a re-analysis of the deposited data

How the results depend on the processing

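At an FDR under 0.05, the calls of Myc, Mycl, Mxi1 and Mxd4 held in every fit that tested them. Mxd3, whose call is partly built into the filter, was not tested with at least 10 counts in every library, with the 16 runs as separate samples, or among genes without exons on the other strand; the last also left out Mxi1 and Mxd4, so that 1 member was lower. With an absolute log2 fold change above 1.5 as a further condition, Myc, Mxi1, Mxd4 and Max lost their calls, so that 1 member (Mxd3) was lower and 1 (Mycl) higher, and of the MYC targets 1 was lower and 1 higher. With the 16 runs as separate samples, which treats runs as replicates, 28 targets were lower and 35 higher and Mxd1 and Mnt were also called. Calls over all genes rose as well, to 7582 of 11179 tested, from 5392 of 13211 in the main fit. The value of Mga changed sign when 1 library was left out, with a range from -0.036 to 0.10. Without GSI replicate 1, Max lost its call and Mnt (0.27) gained one. In that fit and the other 3 with 1 library left out, the lone library of a group is assumed to vary like the other group. Leaving out 1 library gave no more lower targets and fewer higher ones than the main fit. Each such fit also called fewer genes over all genes tested, which bears on the counts of every list in these fits. With the replicate number as a block, calls over all genes rose to 6444 of 13211, and the list counts rose alongside. Of the members 4 were lower and 3 higher, since Mnt was called (adjusted p = 0.0111 from edgeR). Of the ribosome biogenesis targets 9 were higher and 2 lower, and 3 genes of the MGA complex, 5 of MYC turnover, 2 of SIN3 and 2 MYC-repressed genes were higher. Same-numbered libraries deviated together only weakly (correlation 0.155), and the labels do not say that the numbers pair samples. Scaling by RLE or by library totals moved the median of all genes by at most 0.01 on the log2 scale and changed no call of a member, but ended that of Mlx and the 1 higher call of the SIN3 list. DESeq2 ended these 2 calls and the 1 higher call each of the MGA complex and the MYC-repressed genes, and called 1 gene of MYC turnover higher.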
